A study of Mus musculus with 4 samples.

Results

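Complement components and clusterin made up 9 of the 47643 genes listed in the deposited comparison of 2 sorted cell populations from mouse femoral periosteum. The members were found by gene symbol, and each symbol had 1 row. They fall into 2 groups by their usual source: the 3 chains of C1q, made mainly by macrophages (C1qa, C1qb and C1qc), and 6 genes that fibroblasts and other stromal cells commonly express (C1ra, C1s1, C3, C4b, Serping1 and Clu). The TdTomato-positive and TdTomato-negative groups had 2 libraries each, made from periosteal cells that were released from femoral shafts with liberase and separated by FACS. Every mouse behind both groups carried 1 allele of the Sox9CreErt2 driver (Sox9tm1(cre/ERT2)Haak) and 1 allele of the TdTomato reporter (Gt(ROSA)26Sortm14(CAG-tdTomato)Hze) on the strain labelled Sox9CreErt2:TdTomato, and received 3 injections of tamoxifen, with femora taken 2 weeks after the last. A positive cell is by design one in which the Sox9 driver was active when tamoxifen was given, or a descendant of such a cell. The negative population is whatever else the digest released, blood cells included, but blood cell transcripts were read in the positive libraries too. The femora were intact, 18 from 9 mice, and were pooled within 2 collections, so the spread between libraries is that between pools or preparations. Neither age nor sex is given in the sources used here.

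The complement system is a cascade of plasma and tissue proteins that tags targets for uptake and can open pores in membranes. In its classical pathway C1q, built of A, B and C chains, recognises antibody or altered surfaces and activates the proteases C1r and then C1s, which cleave C4 and C2 and so build the enzyme that splits C3, the protein on which all activation routes meet. C1 inhibitor, encoded by Serping1, inactivates C1r and C1s, and clusterin, an extracellular chaperone, blocks assembly of the membrane pore. Tissue macrophages are the chief source of C1q, whereas liver cells and fibroblasts make most of the proteases, C3, C4 and C1 inhibitor, and clusterin is also abundant in cartilage and in many epithelia.

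The authors deposited no library columns, so each gene's 4 library values were solved from its deposited means, maximum and log difference, and they are given as RPKM, reads scaled to library depth and to the kilobases of the gene's genomic span. Each group had a shallower and a deeper library, always given in that order: 31.95 M and 41.60 M reads for the positive group, 16.975 M and 74.005 M reads for the negative group. For C1qc, C1s1, C4b and Serping1 the 2 positive values were known but not which positive library each belonged to. Both assignments are given, first the one in which the pair differs less after scaling (the nearer one). The 2 populations matched their labels in cartilage genes: all 6 chondrocyte markers checked were higher in both positive libraries than in both negative libraries, and Sox9 itself stood at 16.4 and 4.51 RPKM in the positive libraries, against 3.32 and 0.0244 RPKM in the shallower and deeper negative libraries. Blood cell transcripts were read in both groups, and the haemoglobin gene Hba-a1 was at 2011 RPKM or more in every library. Elane, a neutrophil marker, had 46.3 and 785 RPKM in the positive libraries, against 140 and 320 RPKM in the negative libraries. Ppbp, a platelet marker, had 1.15 and 611 RPKM in the positive libraries, against 7.09 and 0.568 RPKM in the negative libraries. The deeper negative library stood apart from the other libraries. Stromal genes were nearly missing from it, with Lum at 0.0957 RPKM and Pdgfra at 0.00118 RPKM, against 79.5 and 1.97 RPKM in the shallower negative library, and the values of the members are therefore also given without it.

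Of the 9 members, 8 had a higher mean log2 level in TdTomato-positive cells and 1, C3, had a lower one. The median log2 fold over the 9 members was 3.88, beside 0.06 over the 17176 genes that reached 10 reads in 2 or more libraries, 53.9% of which had a positive fold. Both rested on the deeper negative library: by limma on log2(RPKM + 1) the median was 2.40 and 8 members were higher with all 4 libraries, against a median of -0.17 and 4 members higher (the C1q chains and Clu) without that library. The positive pair lay wholly above the negative pair for C1qa, C1qb, C1qc and Clu, an order found for 15.9% of those genes, and below them for C3, found for 13.5%. These shares count a gene with unknown libraries only if the order held under either assignment, so they are lower bounds. For C1ra, C1s1, C4b and Serping1 the groups overlapped. By the authors' deposited table, the 3 C1q chains, Serping1 and Clu (5 members) had an unadjusted p under 0.05 with a higher level in positive cells, found for 0.598% of all genes listed and for 1.58% of the 17176 genes, and none had one with a lower level, found for 0.296% and 0.6%. No member passed a false discovery rate (FDR) of 0.05 in the authors' deposited table, which 0.0063% of all genes listed passed as higher and 0% as lower. With 2 libraries against 2, an exact permutation test of a single gene cannot give a two-sided p below 0.333. Limma on log2(RPKM + 1) likewise called no member after Benjamini-Hochberg adjustment over 6861 genes, and 6.22% of those genes had an unadjusted p under 0.05 with a higher level and 4.11% with a lower one. Among the members only Clu had an unadjusted limma p under 0.05 (0.0136). The limma p was 0.0653 for C1qa, 0.0735 for C1qb, 0.0805 for C1qc and 0.273 for Serping1.

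**Figure D1:**
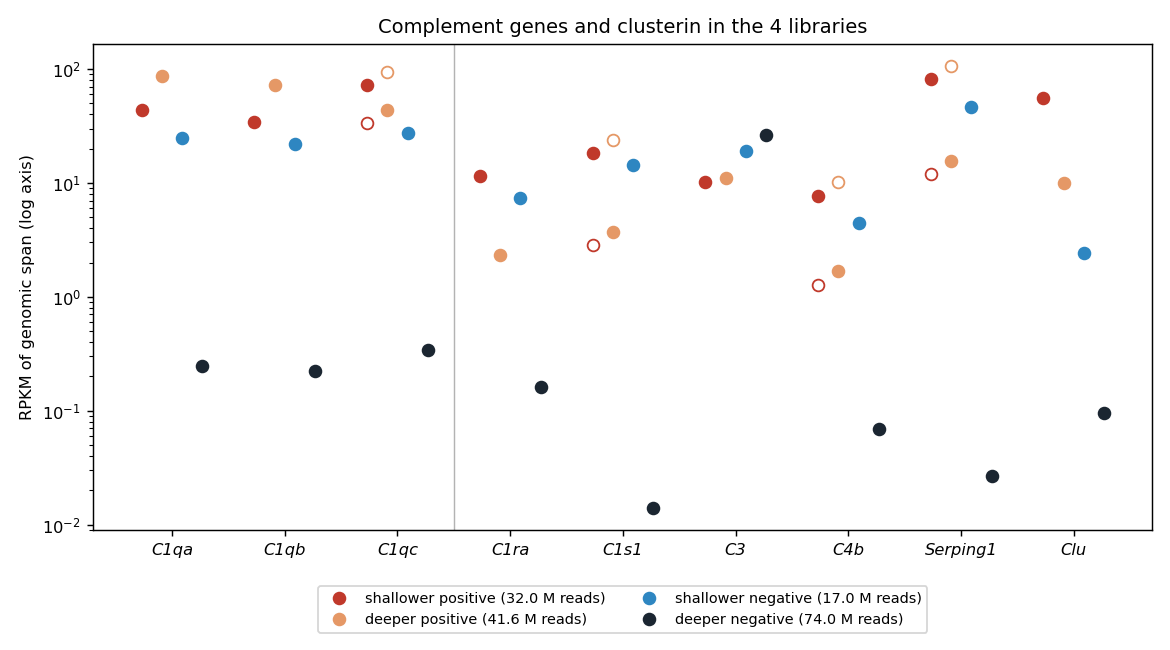
Level of each member in each library on a log axis (RPKM of genomic span), positive libraries left of negative libraries, with open circles for the other assignment of the 4 members whose positive values could not be tied to a library. C1qa, C1qb, C1qc and Clu lie higher in both positive libraries than in both negative ones, C3 lies lower, and the groups of C1ra, C1s1, C4b and Serping1 overlap; the deeper negative library is the low point of every gene shown but C3.

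The 3 C1q genes lie side by side on the minus strand of chromosome 4 (mm10), C1qb at 136880129 to 136886188, C1qc at 136889804 to 136893066 and C1qa at 136895917 to 136898804. The gap between C1qb and C1qc is 3615 bases and that between C1qc and C1qa is 2850 bases. C1ra (chromosome 6, 124512405 to 124523444, plus strand) and C1s1 (124530345 to 124542360, minus strand) are also neighbours, pointing at each other across 6900 bases. Start regions are shown so that neighbouring genes of each group can be compared, C1qb with C1qc and C1ra with C1s1. They run from 250 bases before the start to 50 bases after it, as RefSeq annotates it on GRCm38.p6. Capitals mark the letters AGGAAG on either strand (CTTCCT as read here), a core that the macrophage factor PU.1 and other ETS factors bind, and in C1ra the letters TTCNNNGAA, the core spacing of STAT sites. The C1qb region is chr4:136886151-136886450, C1qc chr4:136892865-136893164, C1ra chr6:124512371-124512670 and C1s1 chr6:124542310-124542609, each printed 5′ to 3′ on its gene's strand.
C1qb: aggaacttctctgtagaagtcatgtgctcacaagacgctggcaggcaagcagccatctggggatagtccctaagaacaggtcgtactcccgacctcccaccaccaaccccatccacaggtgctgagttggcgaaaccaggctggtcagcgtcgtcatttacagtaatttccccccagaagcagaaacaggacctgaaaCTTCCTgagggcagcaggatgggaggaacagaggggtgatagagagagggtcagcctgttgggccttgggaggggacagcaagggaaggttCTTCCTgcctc
C1qc: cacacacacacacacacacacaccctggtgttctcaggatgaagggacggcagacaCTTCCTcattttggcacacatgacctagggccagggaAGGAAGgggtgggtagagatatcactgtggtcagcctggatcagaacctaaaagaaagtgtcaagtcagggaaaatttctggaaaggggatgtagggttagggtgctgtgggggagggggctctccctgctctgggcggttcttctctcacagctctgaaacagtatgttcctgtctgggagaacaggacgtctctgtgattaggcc
C1ra: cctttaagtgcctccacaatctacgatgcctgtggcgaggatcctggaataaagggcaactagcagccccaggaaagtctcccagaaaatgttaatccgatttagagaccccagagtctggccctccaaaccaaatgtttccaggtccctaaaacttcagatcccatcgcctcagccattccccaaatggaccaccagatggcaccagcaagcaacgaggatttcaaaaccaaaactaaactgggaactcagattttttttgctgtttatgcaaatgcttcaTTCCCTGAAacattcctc
C1s1: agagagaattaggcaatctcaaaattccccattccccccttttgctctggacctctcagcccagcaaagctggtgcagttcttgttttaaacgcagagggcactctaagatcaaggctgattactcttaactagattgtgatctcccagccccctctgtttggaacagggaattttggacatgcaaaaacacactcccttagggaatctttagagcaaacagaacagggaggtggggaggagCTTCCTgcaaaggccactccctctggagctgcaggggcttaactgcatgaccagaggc
Both C1q regions held AGGAAG at 2 places and C1s1 at 1, and 35.4% of 32851 mouse promoter windows of the same length hold it at least at 1. The C1ra window alone of these 4 held TTCNNNGAA, present in 8.3% of all windows. The letters were chosen after the windows had been read, a match is a description and not a bound site, and no promoter window was printed for the other members.

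C1qa, the A chain, stood at 43.8 and 87.6 RPKM in the shallower and deeper positive libraries, against 24.6 and 0.248 RPKM in the shallower and deeper negative libraries. Those levels rest on 4036 and 10523 reads in positive libraries, against 1205 and 53 reads in negative libraries, the 53 with an exact Poisson 95% interval of 39.7 to 69.3 that covers counting error only. Both positive values were above both negative ones, and the negative pair differed far more than the positive pair. The log2 fold of C1qa, the difference of the group means of log2(RPKM + 0.1), was 4.40, with p = 0.0032 and an FDR of 1 in the authors' deposited table. The mean of logs gives the low negative value more weight than a ratio of means does: the ratio of mean RPKM was 5.29 for C1qa, 4.81 for C1qb and 4.22 for C1qc, and the ratio in the authors' deposited table was 2.39 for C1qa, 2.16 for C1qb and 2.06 for C1qc.

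C1qb, the B chain, had 34.4 and 73.0 RPKM in the positive libraries, against 22.1 and 0.223 RPKM in the negative libraries, the last from 100 reads. The order of its 4 libraries was the same as for C1qa. Its log2 fold was 4.23, with p = 0.00423 and an FDR of 1 in the authors' deposited table. C1qc, the C chain, had either 72.7 and 43.8 RPKM or 33.6 and 94.7 RPKM in the shallower and deeper positive libraries, against 27.3 and 0.344 RPKM in the negative libraries. Either way both positive libraries were above both negative libraries. Its log2 fold was 4.02, with p = 0.00712 and an FDR of 1 in the authors' deposited table.

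C1qa and C1qb kept nearly the same proportion in every library. The ratio of C1qa to C1qb, per genomic span, was 1.27 and 1.20 in the positive libraries, against 1.11 and 1.11 in the negative libraries, while the level of C1qa ran between 0.248 and 87.6 RPKM across the same libraries. For C1qc the ratio to C1qa was 1.66 and 0.4997 in the positive libraries under the nearer assignment and 0.768 and 1.08 under the other, against 1.11 and 1.39 in the negative libraries. Per exonic kilobase (GENCODE M21 exons) C1qb was the most abundant chain in all 4 libraries, at 192 and 406 in the positive libraries, against 123 and 1.24 in the negative libraries, where C1qa had 122 and 243 against 68.3 and 0.689.

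The C1q difference did not rest on the deeper negative library for its direction, but did for most of its size. Without that library the limma log2 differences, on log2(RPKM + 1), were 1.30 for C1qa, 1.15 for C1qb and 1.02 for C1qc, beside 3.48, 3.27 and 3.22 with all 4 libraries. The standard errors with all 4 libraries were 1.47 for C1qa, 1.44 for C1qb and 1.47 for C1qc, and the adjusted p of limma was 0.464 for C1qa and 0.469 for each of C1qb and C1qc.

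Of 15 macrophage markers, 11 had a higher mean in positive cells, their median log2 fold was 0.70, and in 6 (Mertk, Fcgr1, Folr2, Ms4a7, Pf4 and Maf) the positive pair lay above the negative pair. Of the 15, 7 were under 1 RPKM in every library. Over the 11 markers whose libraries were all known, the summed level was 11.8 and 13.3 RPKM in the positive libraries, against 5.47 and 1.30 RPKM in the negative libraries. That sum leaves out the abundant markers Cd68, Csf1r, Apoe and Pf4, whose libraries were not all known. Pf4, which encodes platelet factor 4, is a platelet gene too and ranged from 41.4 to 629 RPKM over the positive libraries. The platelet marker Ppbp reached 611 RPKM in the deeper positive library, and the part of platelets in the Pf4 level was not tested. Over all 15 markers only bounds can be given, adding each marker's lowest or highest value over both libraries and either assignment. They were 363 to 1330 RPKM for the positive group, against 44.1 to 680 RPKM for the negative group. These bounds overlap, but they are not the level of any library, so whether the library sums overlapped is not known. Folr2, a folate receptor of resident macrophages, had 4.44 and 4.41 RPKM in positive libraries, against 0.915 and 0.00253 RPKM in negative libraries, and Ms4a7, a membrane protein of mature macrophages, had 1.78 and 4.197 RPKM in positive libraries, against 0.909 and 0.0608 RPKM in negative libraries. Of the 13 markers whose negative libraries were known, 10 were lower in the deeper negative library, as C1q was, and 3 (Cd68, Cx3cr1 and Fcgr1) were higher there. Cd68, a lysosomal protein of macrophages, ranged from 26.6 to 99.1 RPKM over the positive libraries, against 32.7 and 37.0 RPKM in the negative libraries. Other markers overlapped between groups as well: Adgre1, which encodes F4/80, had 0.221 and 0.902 RPKM in positive libraries, against 0.320 and 0.203 RPKM in negative libraries, and Mrc1, the mannose receptor, had 0.251 and 0.255 RPKM in positive libraries, against 0.289 and 0.0191 RPKM in negative libraries. None of these markers was at 0 in any library. In sorted pools of this kind fewer cells of a type and less RNA per cell cannot be told apart, and the part of macrophages in the C1q difference was not tested.

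Set against Adgre1 within each library, C1qa was 198 and 97.1 times as high in the positive libraries and 76.7 and 1.22 times as high in the negative libraries. Against Mrc1 the ratios were 174 and 343 in positive libraries, against 85.0 and 13 in negative libraries. Against Ms4a7 they were 24.6 and 20.9 in positive libraries, against 27.1 and 4.08 in negative libraries. C1qa relative to Adgre1, Mrc1 and Ms4a7 was thus lowest in the deeper negative library. Against Folr2 the ratios were 9.85 and 19.85 in the positive libraries and 26.9 in the shallower negative library, thus higher in that negative library than in both positive ones. In the deeper negative library Folr2 had 1 read, too few for a ratio.

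The C1 proteases showed another order of libraries. C1ra, the mouse C1r protease, had 11.4 and 2.32 RPKM in the shallower and deeper positive libraries, against 7.42 and 0.163 RPKM in the shallower and deeper negative libraries. The deeper positive library, highest for C1qa and C1qb, was the lower of the positive pair here, and the groups overlapped. The log2 fold of C1ra was 1.91, with p = 0.194 in the authors' deposited table, and without the deeper negative library the limma log2 difference was -0.39.

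C1s1, the protease that cleaves C4 and C2, had 18.2 and 3.74 RPKM or 2.85 and 23.7 RPKM in the positive libraries, against 14.4 and 0.0139 RPKM in the negative libraries, the last from 12.4 reads with an exact Poisson 95% interval of 6.47 to 21.4. Reads are fractional here because the deposited values are not whole reads for every gene. The groups overlapped under both assignments. The log2 fold of C1s1 was 2.70, with p = 0.0639 in the authors' deposited table, and without the deeper negative library the difference was -0.69. Under the assignment with 18.2 RPKM in the shallower positive library, C1s1 was 1.596 and 1.612 times C1ra in the positive libraries, against 1.95 and 0.0855 times in the negative libraries. Under the other it was 0.250 and 10.2 times C1ra in the positive libraries.

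Near-identical copies could share reads with these genes, and how reads that fit several places were counted is not given in the sources used here. C1rb had at most 6.39 reads and C1s2 at most 36.5 reads in any library. C1s1 overlaps the antisense gene Gm16567, which had at most 0.626 reads, and whether counting used strand is not stated either.

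Serping1 (chromosome 2, 84765387 to 84775445, minus strand), the inhibitor of the same proteases, was the most abundant stromal complement gene per exonic kilobase in 3 of the 4 libraries under the nearer assignment. It had 81.5 and 15.7 RPKM or 12.0 and 106 RPKM in the positive libraries, against 46.8 and 0.0269 RPKM in the negative libraries. The last value came from 20 reads, against 7986 reads in the shallower negative library, and its exact Poisson 95% interval was 12.2 to 30.9 reads. The shallower negative library lay between the positive values in either assignment, so the groups overlapped. The log2 fold was 3.88, with p = 0.00829 and an FDR of 1 in the authors' deposited table. Without the deeper negative library the limma difference was -0.37, and with all 4 libraries it was 2.40 with a standard error of 1.95 and an adjusted p of 0.588.

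C4b (chromosome 17, 34728380 to 34743883, minus strand), which encodes the C4 protein that C1s cleaves, had 7.75 and 1.70 RPKM or 1.28 and 10.1 RPKM in the positive libraries, against 4.48 and 0.0689 RPKM in the negative libraries. Its groups overlapped as well. The log2 fold was 2.09, with p = 0.151 in the authors' deposited table, and it was -0.17 by limma without the deeper negative library. The copy C4a lies 65208 bases away and had at most 87.1 reads in any library under the nearer assignment. Relative to C1ra, C4b was 0.680 and 0.731 in the positive libraries under the nearer assignment, or 0.112 and 4.36 under the other, and 0.603 and 0.423 in the negative libraries.

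The 4 genes C1ra, C1s1, C4b and Serping1 therefore shared a layout: a higher mean log2 level in positive cells (median log2 fold 2.40), overlapping groups, and a negative log2 difference once the deeper negative library was left out. The authors' deposited table gives ratios of group means, positive over negative, of 0.937 for C1ra, 0.776 for C1s1, 1.06 for C4b and 1.06 for Serping1. Those ratios hold a second division by depth, which gives the shallower negative library more weight. The levels formed from the deposited group means times the genomic span were 209 in positive and 223 in negative cells for C1ra, and 1466 in positive and 1381 in negative cells for Serping1, in arbitrary units.

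All 11 stromal markers had a higher mean in positive cells (median log2 fold 2.26), and none had separate groups. Decorin, encoded by Dcn, was at 0.0689 RPKM in the deeper negative library and at 51.5 RPKM in the shallower one. Over the 4 stromal markers whose libraries were all known the summed level was 9.87 and 2.28 RPKM in the positive libraries, against 4.96 and 0.141 RPKM in the negative libraries, the same order as C1ra. Divided by Pdgfra, a receptor of mesenchymal cells, C1ra was 5.06 and 3.11 in the positive libraries, against 3.78 and 138 in the negative libraries, the last resting on 4 reads of Pdgfra. The part of stromal cells in these folds was not tested.

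**Figure D2:**
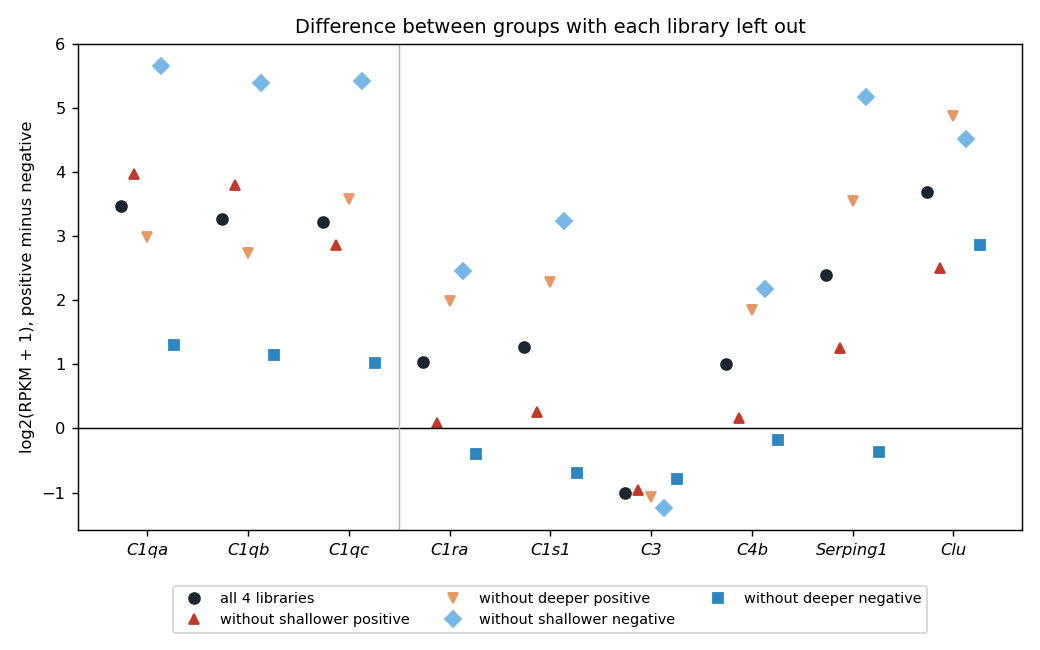
Log2 difference of each member, positive minus negative, on log2(RPKM + 1) with all 4 libraries and with each library left out in turn. C1qa, C1qb, C1qc and Clu stay above 0 and C3 below 0 in every setting, whereas C1ra, C1s1, C4b and Serping1 are below 0 without the deeper negative library.

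C3 (chromosome 17, 57203970 to 57228137, minus strand), the central protein of the cascade, was the only member with a negative log2 fold. It had 10.2 and 11.1 RPKM in the positive libraries, from 7845 and 11113 reads, against 19.0 and 26.5 RPKM in the negative libraries, from 7784 and 47423 reads. Both positive values were below both negative values and the positive pair was close together. The log2 fold was -1.07, with p = 0.441 and an FDR of 1 in the authors' deposited table, and by limma it was -1.02 with a standard error of 0.40 and an adjusted p of 0.463. Leaving out each library in turn kept the limma value between -1.25 and -0.78.

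C3 was the only member that stayed high in the deeper negative library, at 26.5 RPKM beside at most 0.163 RPKM for the other 5 genes grouped with it as stromal. Relative to C1ra it was 0.891 and 4.76 in the positive libraries, against 2.56 and 163 in the negative libraries. C3 was kept in the stromal group as listed, and Dcn and Lum were under 0.1 RPKM in the deeper negative library. The 9 monocyte and neutrophil markers all had a lower mean in positive cells (median log2 fold -1.43), and 3 of them had separate groups. Beside Mmp8, a neutrophil collagenase, C3 was 2.63 and 0.748 in the positive libraries, against 0.290 and 0.172 in the negative libraries. The cells that supplied C3 were not tested.

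Clu (chromosome 14, 65968483 to 65981549, plus strand) had the largest log2 fold of the 9 members with all 4 libraries, although C1qa exceeded it by limma without the shallower positive library (3.97 for C1qa, 2.51 for Clu) and without the shallower negative library (5.66 for C1qa, 4.52 for Clu). It had 56.2 and 10.1 RPKM in the positive libraries, from 23452 and 5468 reads, against 2.44 and 0.0951 RPKM in the negative libraries, from 542 and 92 reads. The groups were separate and the lower positive value was well above the higher negative value. The log2 fold was 5.08, with p = 0.000457, rank 25 of all genes listed, and an FDR of 0.871 in the authors' deposited table. The ratio of group means in the authors' deposited table was 13.2. The ratio of mean RPKM, with the second division by depth and the added 0.1 both removed, was 26.1.

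By limma on log2(RPKM + 1) the Clu difference was 3.69 with a standard error of 0.98 and an adjusted p of 0.463, and it was 2.87 without the deeper negative library. Each collection gave a positive and a negative library, but which of them belong together could not be read from the values. When a replicate block paired the shallower positive library with the shallower negative library, limma gave Clu an adjusted p of 0.0433 over 3646 genes with known libraries, of which 2.25% were called higher and 1.26% lower. With the opposite pairing the adjusted p was 0.954.

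Clu differed from the proteases in its ratio to C1ra, which was 4.93 and 4.33 in the positive libraries, against 0.329 and 0.584 in the negative libraries. Relative to Sox9 it was 3.43 and 2.23 in the positive libraries, against 0.736 and 3.90 in the negative libraries, and relative to Comp, a cartilage and tendon matrix protein, 0.283 and 0.229 in the positive libraries, against 0.178 and 5.45 in the negative libraries. The values of 3.90 and 5.45 rest on 10 reads of Sox9 and 11 reads of Comp. Chondrocyte markers moved with Clu: their median log2 fold was 4.97 over 6 genes, 6 of which had separate groups. So did other connective tissue lists, with 4 of 4 tendon markers higher (median log2 fold 4.18, 1 with separate groups) and 5 of 5 osteoblast markers higher (median log2 fold 2.40, 2 with separate groups). The summed level of the 5 chondrocyte markers with known libraries was 1042 and 142 RPKM in the positive libraries, against 49.1 and 0.118 RPKM in the negative libraries, and the part of these cell types in the Clu difference was not tested.

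**Figure D3:**
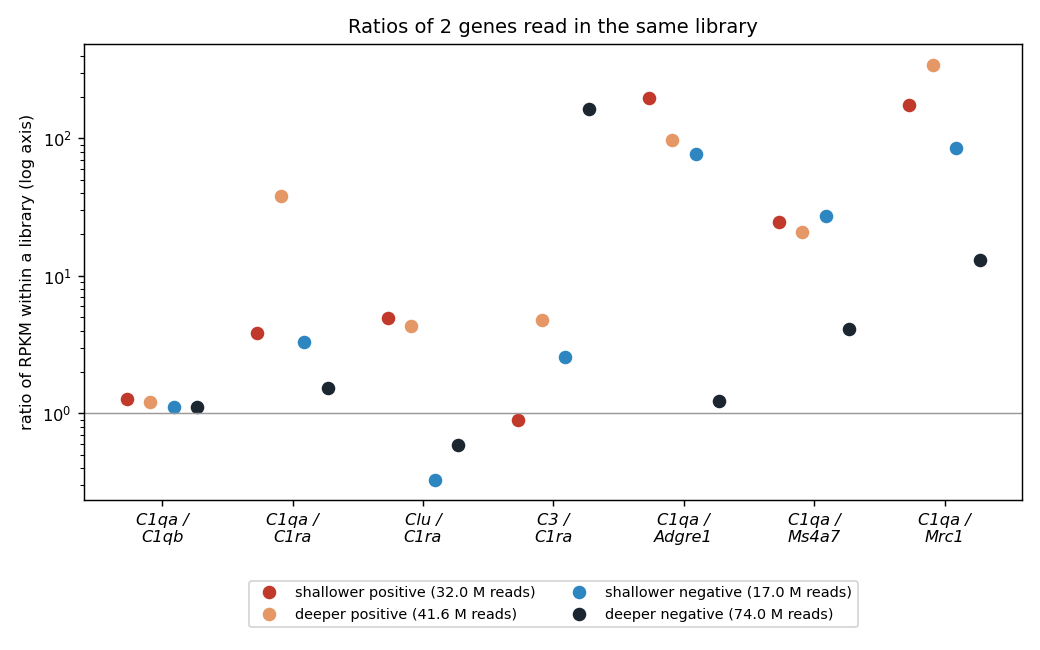
Ratios of pairs of genes inside each library on a log axis, positive libraries left of negative libraries. C1qa to C1qb stays between 1.11 and 1.27 in all 4 libraries, Clu to C1ra is above 4 in both positive libraries and below 1 in both negative ones, and C3 to C1ra reaches 163 in the deeper negative library.

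The C1q chains and the stromal complement genes were then set side by side. The median log2 fold was 4.23 over the 3 C1q genes and 2.40 over the 6 stromal complement genes, a difference of 1.83. Over the 4 stromal complement genes left without Clu and C3 the median was 2.40 as well. All 3 C1q genes had separate groups, against 1 of 6 higher and 1 of 6 lower for the stromal complement genes. Inside libraries, the median log2 level of C1q minus that of the stromal complement genes was 1.596 and 3.55 in the positive libraries, against 1.24 and 0.94 in the shallower and deeper negative libraries. The positive values took the nearer assignment of C1qc, C1s1, C4b and Serping1. The value of 3.55 belonged to the deeper positive library, in which C1qa was 37.7 times C1ra, against 3.84 times in the other positive library and 3.31 and 1.52 times in the negative pair. On log2(RPKM + 1) the difference of medians was 2.11 with all 4 libraries, 3.59 without the shallower positive library, 0.85 without the deeper positive library, 2.57 without the shallower negative library and 1.53 without the deeper negative library. These differences took the nearer assignment too. They were not computed under the other one, so the values without 1 positive library rest on an assumed assignment. With the nearer assignment the positive libraries differed from each other by more than the negative libraries did.

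**Figure D4:**
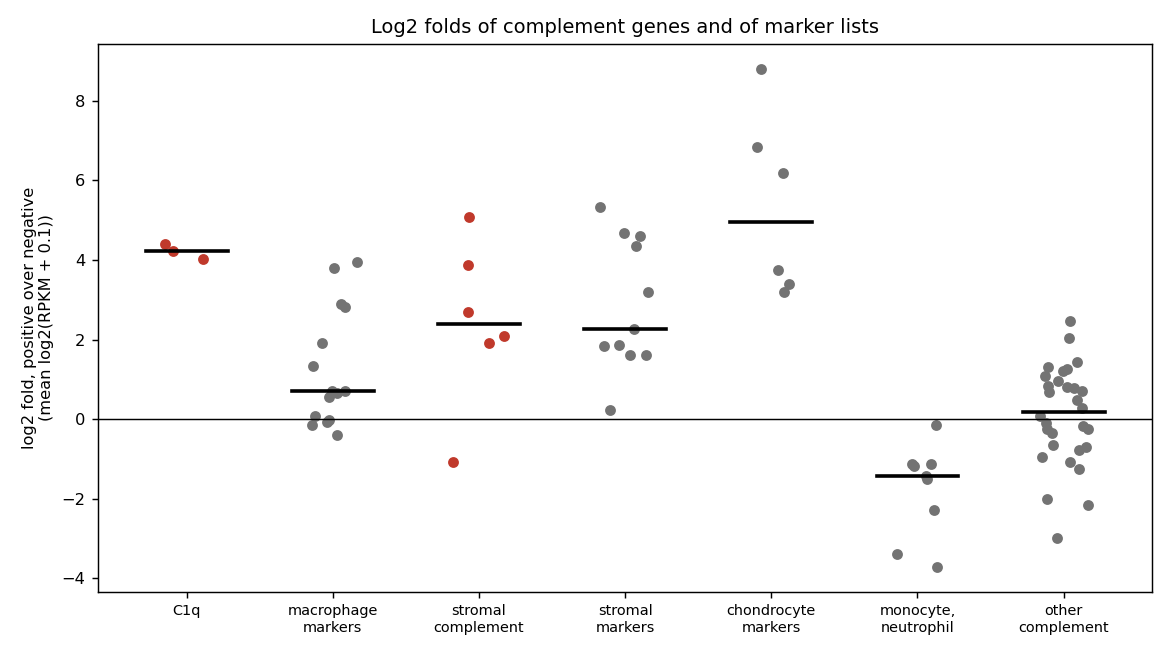
Log2 folds, positive minus negative, of single genes in the C1q chains, the stromal complement genes, the other complement genes and the marker lists, with the median of each list. The C1q median of 4.23 and the stromal complement median of 2.40 lie above the median of 0.18 for the 30 other complement genes that reached 10 reads in 2 or more libraries.

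Of 46 other complement genes listed, 6 had no read in any library and 30 reached 10 reads in 2 or more of them. Among those 30, 16 had a higher and 14 a lower mean in positive cells (median log2 fold 0.18), and 4 were separate upwards and 4 downwards. Among the 15 that averaged 1 RPKM or more in either group, the highest log2 folds included those of Vtn at 2.47, C3ar1 at 2.05, Fcna at 1.31 and Cfb at 1.09, and none of these 4 had separate groups or an unadjusted p under 0.05 in the authors' deposited table. Vtn, encoding vitronectin, an inhibitor of the membrane pore, had 4.12 and 4.69 RPKM in the positive libraries, against 5.79 and 0.0125 RPKM in the negative libraries. C3ar1, the receptor for the C3a fragment, had 1.502 and 6.17 RPKM in the positive libraries, against 1.57 and 0.250 RPKM in the negative libraries, high in the positive library in which C1q was high.

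The alternative pathway protease Cfb ranged from 1.32 to 11.8 RPKM over the positive libraries, the assignment not being known, and had 8.69 and 0.321 RPKM in the negative libraries. Like C1ra it was low in the deeper negative library. Among the same 15 genes the lowest log2 folds were those of Itgam at -2.99, C5ar1 at -2.16, Itgb2 at -2.01, Cd93 at -0.78 and Cd55 at -0.69. Itgam and Itgb2 encode the chains of complement receptor 3 of neutrophils, monocytes and macrophages. Itgam had 0.350 and 2.39 RPKM in the positive libraries and between 3.60 and 18.9 RPKM in the negative libraries, with p = 0.0334 and an FDR of 1 in the authors' deposited table. It was the only one of the 30 genes with an unadjusted p under 0.05.

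By distance between centred log2(RPKM + 1) values over the 4 libraries, among the 3646 genes with known libraries and at least 1 RPKM in at least 2 of them, the genes nearest to C1qa were Ccl7 (distance 0.119), C1qb (0.233), Retnla (1.17), Gm13889 (1.30) and Myod1 (1.42). Ccl7, a monocyte chemokine, had 57.6 and 118 RPKM in the positive libraries, against 34.0 and 0.827 RPKM in the negative libraries. Retnla is expressed by alternatively activated macrophages, and Myod1 is a muscle transcription factor. The genes nearest to C1ra, taken in place of C1s1 because the positive libraries of C1s1 were not known, were Msx1 (0.216), Sparcl1 (0.242), Gstm2 (0.280), Tns2 (0.357) and Clec3b (0.359). Those nearest to Clu were 1500015O10Rik (0.657), Mdk (1.02), Cytl1 (1.05), Gpha2 (1.26) and Ctsk (1.35). Counted from C1qa, Clu was the 127th nearest gene, C1ra the 202nd and C3 the 3227th. With 4 values a gene, these distances describe the libraries at hand and nothing more.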

How the data were processed

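RNA from TdTomato-positive and TdTomato-negative periosteal cells was sequenced as paired 75 nucleotide reads, 2 libraries a group. Per the labels and the submitters' processing notes, reads were mapped with STAR to mm10 and quantified and compared in Partek, and neither version is given in the sources used here. Per the file headers the authors deposited 1 comparison, a lognormal model with shrinkage: group means of a signal, their ratio, a difference of natural logs, a p-value with step-up FDR, and scores (signed fold, AICc, and a sum and a maximum over libraries). No column holds a library.

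The 4 library values of each gene were solved from the 2 means, the maximum and the log difference, and every gene had exactly 1 solution. From the lowest values, the signal is (RPKM of genomic span + 0.1) divided once more by depth and span; depths of 31.95 M and 41.60 M (positive) and 16.975 M and 74.005 M reads (negative) were inferred from genes with no read. Over all genes the authors' AICc score ran from -88.7 to 73.3, and from 24.5 to 25.8 once this scaling was removed. A group's 2 values were given to libraries where negative or fractional reads excluded the other choice (70.6% of 17176 genes); otherwise both are given, and fits take the one whose libraries differ less. Log2 folds were shifted by 0.04 for the second depth division. The collections could not be matched to the recovered libraries, so whether replicate numbers deviate together was not checked and both pairings were fitted.

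The authors' p and FDR (0.05, over 47643 genes) were the test. Alternatives used limma 3.58.1 in R 4.3.3 on log2(RPKM + 1), keeping 6861 genes with at least 1 RPKM in at least 2 libraries. The steps were also run on simulated data in which the libraries of a group varied far less than here. That run does not show how limma behaves on these libraries. All 9 members were named; of other complement genes averaging 1 RPKM or more in either group, the 5 highest and 5 lowest folds (1 of them is not reported here), with near copies; and the 5 genes nearest to C1qa, C1s1 and Clu, C1ra replacing C1s1. Members and lists were chosen with earlier results of these data known. Intervals cover counting error only.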

Additional observations from a re-analysis of the deposited data

How the results depend on the processing

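Of 114 alternative values of the members' log2 folds, 107 kept direction and side of the threshold, 6 reversed and 1 newly passed. These values are not independent. The fits without a filter, on genes with known libraries, or with a replicate block repeat the limma fold by construction, and only their p can differ. Limma on log2(RPKM + 0.1) likewise repeats the log2 fold itself. The ratios carry no p and were judged by direction alone. Without the deeper negative library C1ra was -0.39, C1s1 -0.69, C4b -0.17 and Serping1 -0.37, and from the ratio of group means in the authors' deposited table C1ra was -0.095 and C1s1 -0.37 (log2). Leaving out each library in turn gave 1.30 to 5.66 for C1qa, 1.15 to 5.39 for C1qb, 1.02 to 5.42 for C1qc, -0.39 to 2.46 for C1ra, -0.69 to 3.23 for C1s1, -1.25 to -0.78 for C3, -0.17 to 2.18 for C4b, -0.37 to 5.17 for Serping1 and 2.51 to 4.88 for Clu, with 4 to 8 members higher in positive cells, a median of -0.17 to 4.52 and 0 called. The C1q minus stromal difference of medians ranged from 0.85 to 3.59 in the same way on log2(RPKM + 1), with 2.11 from all 4 libraries, and the spread behind it was 0.99 (SD between libraries). The fits with a library left out, this range and this spread took the nearer assignment for C1qc, C1s1, C4b and Serping1. They were not computed under the other assignment. The replicate block that paired the shallower positive library with the shallower negative library called 1 member, Clu (3.69, adjusted p = 0.0433 by limma), and 82 genes higher and 46 lower, and the opposite pairing called none of the members; over the alternatives the adjusted p of Clu ran from 0.0433 to 0.993. The authors' deposited table called 3 genes in all, limma without a block 0, with 427 higher and 282 lower at an unadjusted p under 0.05. The block was fitted only for C1qa, C1qb, C1ra, C3 and Clu. Leaving out a library leaves that group with 1, assumed to vary like the other group. The authors' ratio and the median and number of members higher without each library were alternatives chosen after seeing the data. The causes were not tested. Depth limits the low end: in the deeper negative library C1s1 rested on 12.4 reads and Serping1 on 20. The alternatives with means in place of medians, without Clu and with other pseudocounts, filters and scaling were the remaining ones run.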

Other observations

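Of the 46 other complement genes, 28 were under 1 RPKM in every library. Mbl1 and Mbl2, the mannose-binding lectins, and C6, C8b and C9 of the membrane pore had 0 reads in all 4 libraries, which allows up to 3 reads in each. Hc, encoding C5, had 0 and 0 reads in the positive libraries, against 15 and 88 reads in the negative libraries. The lectin pathway protease Masp1 had 140 and 143 reads in the positive libraries, against 31 and 0 reads in the negative libraries, and Masp2 had 0 and 9 reads in the positive libraries, against 0 and 0 reads in the negative libraries. Properdin, which stabilises the alternative pathway enzyme and is encoded by Cfp, had 4.93 and 23.8 RPKM in the positive libraries, against 13.7 and 21.6 RPKM in the negative libraries, with overlapping groups and a log2 fold of -0.66. The ficolin Fcnb, a recognition protein of the lectin pathway, was also abundant, with values between 4.23 and 38.0 RPKM over the positive libraries, against 10.8 and 21.5 RPKM in the negative libraries. C1qbp, a mitochondrial protein first found as a C1q binding protein, had 10.7 and 8.497 RPKM in the positive libraries, against 5.07 and 6.93 RPKM in the negative libraries, and its log2 fold of 0.67 was far below those of the C1q chains.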
